A study of Mus musculus with 8 samples.

Results

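The FOS and JUN family of the transcription factor AP-1 was followed in TTE3 cells, a mouse testicular Sertoli cell line, over 12 h of exposure to bisphenol A (BPA). The family was taken as Fos, Fosb, Fosl1, Fosl2, Jun, Junb and Jund. Its rows were all probe sets annotated with exactly 1 of these symbols, which gave 9 probe sets of 7 genes out of 22690 probe sets, which together hold 12393 genes with a probe set of their own. All 4 groups were TTE3 cells given 0.2 mM BPA, for 0, 3, 6 or 12 h, with 2 Affymetrix Mouse 430A arrays per group and 8 arrays in all. The line comes from transgenic mice that carry a temperature-sensitive T-antigen of simian virus 40, and every group shares that transgene. Whether both arrays of a time came from different dishes is not in the labels, so each p-value reflects the scatter among the arrays at hand, which could be purely technical. No group was kept without BPA for 3, 6 or 12 h among the samples analysed here, so BPA and time in culture cannot be told apart.

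AP-1 is a dimer of basic leucine zipper proteins. FOS proteins (Fos, Fosb, Fosl1 and Fosl2) do not pair stably with each other and bind DNA with a JUN partner, while JUN proteins (Jun, Junb and Jund) can also pair among themselves. Most of these genes are immediate early genes: signals from growth factors, stress and kinases raise their transcription within minutes, their messenger RNAs are short-lived, and the dimers they form then act on genes of proliferation, matrix turnover and stress. Jund differs from its relatives in being made at a steady level in most resting cells.

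Levels are the linear signals that the authors deposited for each probe set, and a ± after a mean signal is the SD of 2 arrays. The number of arrays limits their precision. A change is a difference of mean log2(signal + 7.9), which understates the change of dim probe sets, with the standard error (SE) from a limma model over 15838 probe sets. A probe set was called at a Benjamini-Hochberg adjusted p under 0.05 over all of these. The median signal per array was between 150.85 and 170.05, and the 2 arrays of a group correlated at 0.97 to 0.982 on the log2 scale. Of 20 Sertoli markers on the array 12 were above the filter on low signals, among them Gata4, Wt1, Clu, Kitl, Tjp1 and Nr5a1. Signals of Amh, Cldn11, Dmrt1, Gdnf, Dhh, Ocln, Cst12 and Aard were under it. Of the Leydig cell markers 1 of 5 (Star) and of the germ cell markers 3 of 15 were above it, of the macrophage and endothelial markers 6 of 11, and of the peritubular and fibroblast markers 7 of 10, with Dcn at 8432 ± 12.2 at 0 h. The summed signal of the Sertoli markers was 12560 to 12880 on the 0 h arrays and 8811 to 9717 on the 12 h arrays, and Clu alone, at 7650 ± 137 and 3409 ± 452, dropped by more than the sum. Of the 12 tested Sertoli markers 3 rose at 12 h (Sox9, Gata4 and Tjp1) and 2 fell (Clu and Inhbb), at a median change of 0.23. The peritubular and fibroblast sum was 9807 to 9822 and then 4647 to 5448. Nearly all of that drop lay in Dcn (4290 ± 539 at 12 h) and Col1a1 (975.1 ± 86.9 and then 329.7 ± 20.4), the 2 of 7 tested that fell, while 0 rose in limma and the list's median was -0.01. The germ cell sum was 886.8 to 892.9 at 0 h and 576.4 to 585.9 at 12 h, a drop no larger than that of Kit alone (545.5 ± 31.2 and then 229.6 ± 84.5), the 1 of 3 tested that fell. The macrophage and endothelial sum was 833.5 to 866.3 and then 905.8 to 924.3, and the Leydig sum was 509 to 511.5 and then 486.5 to 615.7. The sums are thus set by a few bright genes, and the part of their shifts in the changes below was not tested, and in such bulk samples fewer cells of a type and less RNA per cell cannot be told apart.

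Of the 7 genes 5 rose by 3 h and were still raised at 12 h: Fos, Fosl1, Fosl2, Jun and Junb. Fos rose most, and it was the 1 member called lower from 6 to 12 h. In the deposited values the arrays of Jun, Junb and Jund also lay lower at 12 h than at 6 h without overlap, but these steps were not called. They depend on the scaling. With equal medians on all arrays the Jund step was 0.01 in place of -0.10, and that of the brighter Jun probe set -0.07 in place of -0.18. Junb and the dimmer Jun probe set then lay at -0.40 and -0.18. The share of all probe sets without overlap was not computed. Fosb was called only at 12 h, on a low signal, and Jund was not called at any time. In numbers of probe sets, 7 of 9 were called higher at 3 h and 0 lower, against 5.91% and 2.87% of all probe sets tested. At 6 h 7 of 9 were called higher and 0 lower, against 13.0% and 8.84%, and at 12 h 8 of 9 and 0, against 17.0% and 16.4%. The median change of the 9 was 1.63, 1.85 and 1.63 at 3, 6 and 12 h, and that of all probe sets was 0.04, 0.04 and 0.03. The filter was on the mean over all 8 arrays. The 0 h mean of Fosb, 33.9, lay under its signal of 40.7, so Fosb passed through the treated arrays where it is higher, and its call adds nothing to the count. Without Fosb the 12 h count is 7, as at 3 and 6 h. The members were chosen with earlier results of these data known, so their counts do not test an excess over all probe sets. The plot of signals by array shows the levels, and the plot of changes against 0 h their sizes.

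**Figure D1:**
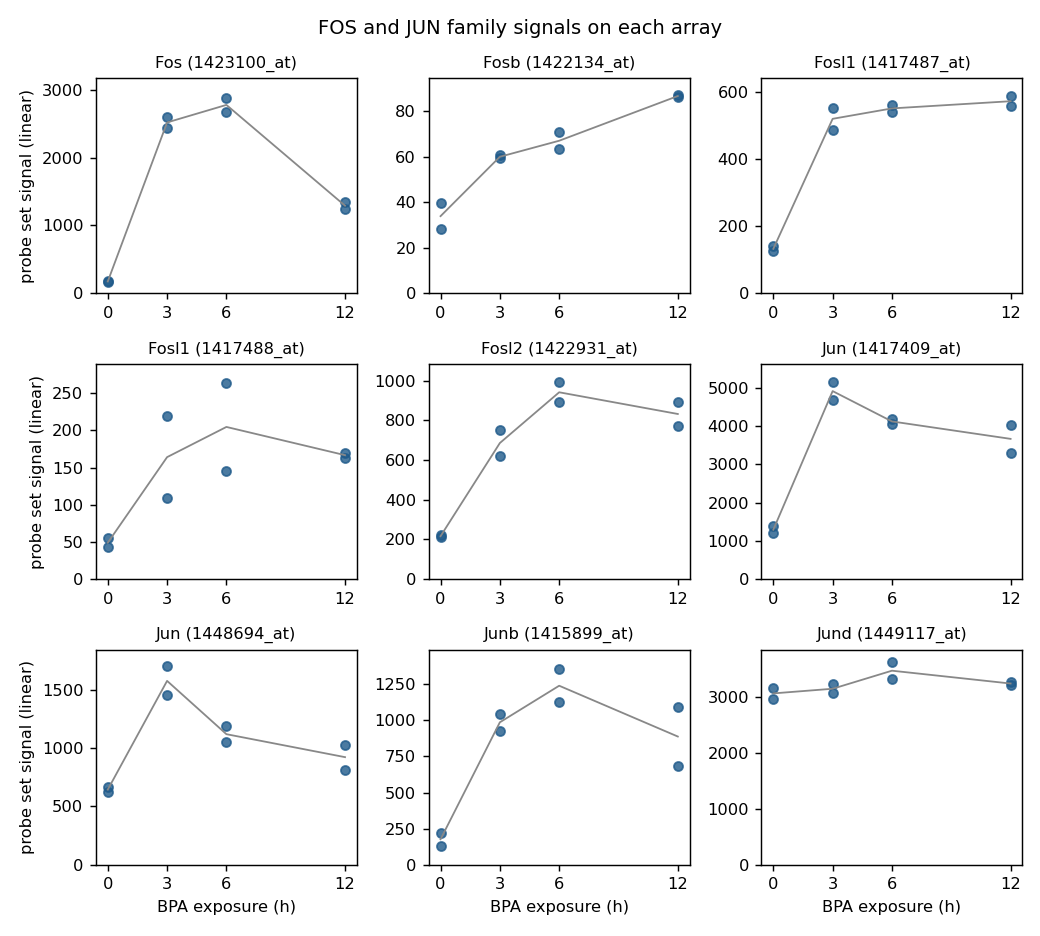
Linear probe set signal (vertical axes, each starting at 0) against hours of BPA (horizontal axes) for the 9 probe sets; points are single arrays and grey lines join the means of 2. Fos climbed to a mean of 2777 at 6 h and stood at 1291 at 12 h, while Jund stayed between 2964.6 and 3622.2 on all 8 arrays.

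**Figure D2:**
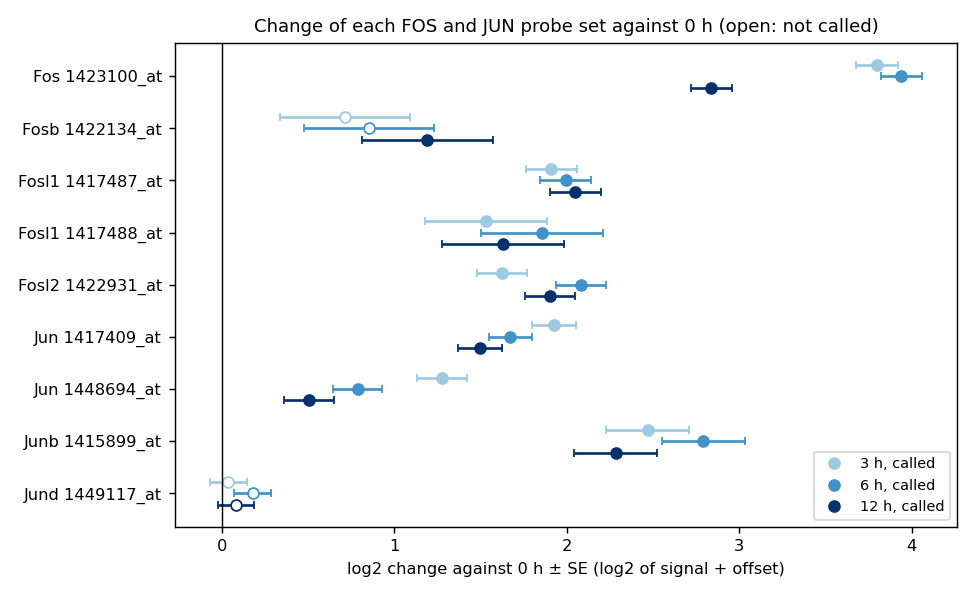
Change against 0 h on the log2(signal + 7.9) scale (horizontal axis) with its SE as bars, for each probe set at 3, 6 and 12 h; filled points were called at an adjusted p under 0.05. Fos lay between 2.84 and 3.94, Junb between 2.28 and 2.79, and the open points are Fosb at 3 and 6 h and Jund at all times.

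The stretch before each gene's start is shown for Fos, Jun, Junb and Fosl2, which were among the genes that rose within 3 h. Fosl1 rose by then too, but no window of it was among the sequences used. The windows run from 250 bases before to 50 bases after the RefSeq start (GRCm38.p6): chr12:85473640-85473939 on the plus strand for Fos, chr4:95052173-95052472 on the minus strand for Jun, chr8:84978699-84978998 on the minus strand for Junb and chr5:32136222-32136521 on the plus strand for Fosl2. Capitals mark every match, on either strand, of 7 motifs searched by their exact letters. They are the core TGACGT of the cyclic AMP response element, the AP-1 site TGANTCA, the variant AP-1 site TGACATCA, the CCAAT box, the GC box GGGCGG, the TATA box as TATAAA, and the CArG box, which binds serum response factor and was searched by its consensus. No matches of different motifs overlap one another in these windows.
Fos: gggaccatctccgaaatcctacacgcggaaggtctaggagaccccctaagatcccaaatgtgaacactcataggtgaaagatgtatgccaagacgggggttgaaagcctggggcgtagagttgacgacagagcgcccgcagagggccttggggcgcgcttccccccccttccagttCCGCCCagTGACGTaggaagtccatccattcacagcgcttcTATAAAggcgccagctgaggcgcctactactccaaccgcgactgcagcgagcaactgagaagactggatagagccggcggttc
Jun: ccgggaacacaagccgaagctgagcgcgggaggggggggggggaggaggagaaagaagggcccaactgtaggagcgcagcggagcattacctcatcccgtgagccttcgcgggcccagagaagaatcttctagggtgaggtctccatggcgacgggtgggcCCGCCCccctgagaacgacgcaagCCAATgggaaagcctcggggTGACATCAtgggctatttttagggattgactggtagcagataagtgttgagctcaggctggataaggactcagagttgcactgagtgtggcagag
Junb: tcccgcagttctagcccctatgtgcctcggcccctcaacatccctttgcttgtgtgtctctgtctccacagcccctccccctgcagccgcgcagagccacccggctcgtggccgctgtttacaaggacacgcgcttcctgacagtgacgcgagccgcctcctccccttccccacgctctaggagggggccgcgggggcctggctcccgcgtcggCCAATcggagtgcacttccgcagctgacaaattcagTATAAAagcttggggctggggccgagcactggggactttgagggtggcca
Fosl2: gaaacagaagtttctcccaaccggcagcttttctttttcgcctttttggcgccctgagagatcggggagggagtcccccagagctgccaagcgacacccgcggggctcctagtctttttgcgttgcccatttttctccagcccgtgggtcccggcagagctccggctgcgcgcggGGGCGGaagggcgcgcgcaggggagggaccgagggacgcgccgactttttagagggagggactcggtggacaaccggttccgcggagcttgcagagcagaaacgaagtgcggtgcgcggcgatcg

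The Fos window held a GC box, the cyclic AMP response element core at bases -66 to -61 and a TATA box at -33 to -28, counted from the start with -1 as the base before it. The Jun window held a GC box, a CCAAT box and the variant AP-1 site at -45 to -38. Junb had a CCAAT box, and its TATA box lay at bases 1 to 6, downstream of the annotated start, while Fosl2 had a GC box alone. Of the other windows, that of Fosb held 3 GC box matches, of which a pair share a base, and that of Jund none of the 7 motifs. Among all 32851 windows of that length in the table, TGACGT was found in 7.51%, TGACATCA in 3.62%, TGANTCA in 7.81%, CCAAT in 37.4%, GGGCGG in 35.7%, TATAAA in 13.6% and the CArG box in 1.63%. Neither TGANTCA nor the CArG box was found in any of the 6 members' windows. A match is a run of letters and not a measured binding site, and a missing match says only that the letters are not in this window. The G and C content was 58.7%, 60.0%, 65.3% and 64.7% in the printed windows, 68.3% for Fosb and 46.7% for Jund, with a median of 52.7% over all windows.

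**Figure D3:**
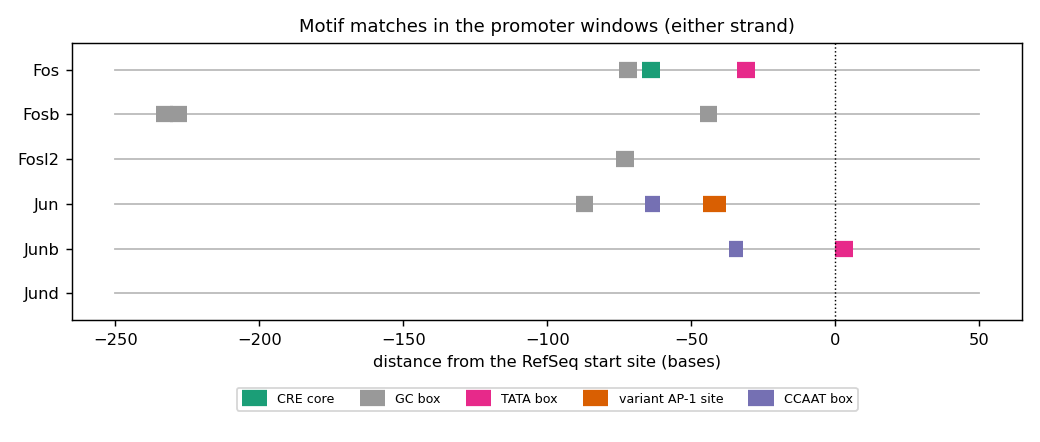
Motif matches (coloured blocks, drawn to scale) in the promoter windows of 6 members, by distance in bases from the RefSeq start (dotted line). Fos is the member with the TGACGT core, Jun the one with the variant AP-1 site, and Jund has no block.

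Fos encodes the founding FOS protein and is the classical immediate early gene. Its signal (probe set 1423100_at) was 184.3 and 163.4 at 0 h, 2440.4 and 2596.3 at 3 h, 2880.7 and 2673.6 at 6 h, and 1241.2 and 1340.7 at 12 h. No treated array overlapped the 0 h arrays, and both 12 h arrays lay below all arrays of 3 and 6 h. The change against 0 h was 3.80 ± 0.12 at 3 h (limma adjusted p = 4.87e-09), 3.94 ± 0.12 at 6 h (4.18e-09) and 2.84 ± 0.12 at 12 h (3.46e-08). As ratios of mean signals these were 14.5, 16.0 and 7.43. Ordered by the size of the rise among 15838 probe sets, Fos was number 2 at 3 and at 6 h and number 31 at 12 h. Its step from 3 to 6 h was 0.14 ± 0.12 (adjusted p = 0.694), and from 6 to 12 h it fell by 1.10 ± 0.12 (limma adjusted p = 0.000863).

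Fosb encodes a close relative of Fos that is also made as a truncated splice form, which this array does not tell from the full form. Its probe set 1422134_at was dim, at the 35.7th percentile of mean log2 signal, with 28.2 and 39.6 at 0 h, 60.7 and 59.3 at 3 h, 63.3 and 70.8 at 6 h, and 87.0 and 86.4 at 12 h. The signals of each later time lay above those of the time before on both arrays. From 3 to 6 h the step was 0.14 ± 0.38 (limma adjusted p = 0.926). From 6 to 12 h it was 0.34 ± 0.38 (0.699), and neither step was called. Changes against 0 h were 0.71 ± 0.38 at 3 h (adjusted p = 0.292), 0.85 ± 0.38 at 6 h (0.136) and 1.19 ± 0.38 at 12 h, and limma called the last (adjusted p = 0.0294), with a 0 h level under the filter's signal. The 12 h call was lost without any 1 of the 4 arrays compared (adjusted p = 0.153 and 0.0577 without replicate 1 or 2 at 0 h, 0.101 and 0.0928 without replicate 1 or 2 at 12 h) and with no filter (0.0525). The 6 h change was called without the intensity trend (adjusted p = 0.0181).

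Fosl1 encodes FRA-1 and Fosl2 encodes FRA-2, FOS proteins without the strong activation domain of Fos, and both genes are known as targets of AP-1 themselves. The brighter Fosl1 probe set, 1417487_at, read 139.5 and 125.0 at 0 h, 551.0 and 487.2 at 3 h, 560.1 and 540.1 at 6 h, and 557.2 and 585.8 at 12 h. It was thus about level from 3 h on, with changes against 0 h of 1.91 ± 0.15, 1.995 ± 0.15 and 2.05 ± 0.15 (limma adjusted p = 9.98e-06, 2.93e-06 and 1.64e-06). Its steps were 0.08 ± 0.15 from 3 to 6 h (95% interval -0.24 to 0.41) and 0.05 ± 0.15 from 6 to 12 h (-0.27 to 0.38), and neither was called. The dimmer Fosl1 probe set, 1417488_at, read 54.9 and 42.8 at 0 h, 219.0 and 109.1 at 3 h, 264.3 and 145.1 at 6 h, and 163.5 and 169.9 at 12 h. All treated arrays lay above both 0 h arrays, but the 2 arrays of 3 h, and those of 6 h, stood far apart, with replicate 1 the higher. Its changes were 1.53 ± 0.35, 1.85 ± 0.35 and 1.63 ± 0.35 (adjusted p = 0.0192, 0.00303 and 0.00381), within 0.42 of those of the brighter probe set. The 3 h call of the dimmer probe set was lost without either 0 h array (adjusted p = 0.0683 and 0.133), without replicate 1 at 3 h (0.184), with no filter (0.0514) and without the intensity trend (0.0775).

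Fosl2 (1422931_at) read 211.4 and 221.1 at 0 h, 622.8 and 749.7 at 3 h, 891.3 and 993.3 at 6 h, and 770.1 and 895.5 at 12 h. It was highest at 6 h, and only the 6 and 12 h arrays overlapped among neighbouring times. Its changes were 1.63 ± 0.15, 2.08 ± 0.15 and 1.90 ± 0.15 at 3, 6 and 12 h (limma adjusted p = 3.11e-05, 1.87e-06 and 2.76e-06). From 3 to 6 h it changed by 0.46 ± 0.15, at an unadjusted p of 0.00881 and an adjusted p of 0.207 in limma.

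Jun encodes c-JUN, a partner with which FOS proteins bind DNA and a target of the JNK kinases. Its brighter probe set, 1417409_at, read 1206.0 and 1376.4 at 0 h, 5159.9 and 4682.1 at 3 h, 4058.0 and 4195.4 at 6 h, and 3294.2 and 4046.1 at 12 h. The 3 h arrays were the highest, the 6 h arrays came next and the 12 h arrays lay below them, all without overlap. Neither the step from 3 to 6 h nor that from 6 to 12 h was called. Against 0 h the changes were 1.93 ± 0.13, 1.67 ± 0.13 and 1.497 ± 0.13 (limma adjusted p = 2.27e-06, 3.43e-06 and 5.52e-06). The other Jun probe set, 1448694_at, read 622.3 and 666.1 at 0 h, 1452.2 and 1699.3 at 3 h, 1189.4 and 1048.8 at 6 h, and 815.6 and 1029.0 at 12 h. It followed the same order with smaller changes, of 1.28 ± 0.14, 0.79 ± 0.14 and 0.50 ± 0.14 (adjusted p = 0.000177, 0.00241 and 0.0177). The changes of the 2 probe sets differed by 0.65, 0.89 and 0.99 at 3, 6 and 12 h, so the size of the rise of Jun depends on the probe set read. The 12 h call of 1448694_at was lost without either 0 h array (adjusted p = 0.111 and 0.0586), once replicate 2 of 12 h was left out (0.15; change 0.34) and with no intensity trend (0.0645).

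Junb encodes a JUN protein that activates transcription less strongly than c-JUN at many sites and can oppose it. Its signal (1415899_at) was 219.7 and 133.3 at 0 h, 1046.1 and 926.1 at 3 h, 1354.9 and 1123.6 at 6 h, and 1089.5 and 685.7 at 12 h. All treated arrays stood above 0 h, and on the linear scale the 12 h arrays spread more widely than those of any other time. The changes were 2.47 ± 0.24, 2.79 ± 0.24 and 2.28 ± 0.24 (limma adjusted p = 5.86e-05, 9.91e-06 and 2.59e-05), after Fos the largest of the members. From 6 to 12 h Junb changed by -0.51 ± 0.24 (adjusted p = 0.293).

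Jund (1449117_at) was bright and nearly level, with 2964.6 and 3159.1 at 0 h, 3229.4 and 3060.0 at 3 h, 3622.2 and 3312.4 at 6 h, and 3265.5 and 3210.5 at 12 h. The 3 h arrays overlapped those of 0 h, and the 6 and 12 h arrays lay just above them. Its changes were 0.04 ± 0.11 (95% interval -0.19 to 0.27), 0.18 ± 0.11 (-0.05 to 0.41) and 0.08 ± 0.11 (-0.15 to 0.31), with limma adjusted p of 0.875, 0.265 and 0.6. The 3 h value was -0.09 when all arrays were scaled to the same median. Rises of 1 log2 unit, as in the other JUN genes at 3 h, lie outside each of these intervals, though the difference between Jund and its relatives was not itself tested.

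The timing within the treated groups was compared next. From 3 to 6 h 0 of the 9 probe sets were called by limma (2 at an unadjusted p under 0.05: Fosl2 and the dimmer Jun probe set), against 0.492% of all probe sets higher and 0.48% lower. From 6 to 12 h 1 of 9 was called lower, Fos, and 0 higher, against 2.41% and 0.568%. The change of Fos ranged from -1.16 to -0.996 under the 18 alternatives tried, with limma adjusted p from 0.000296 to 0.0418. The comparison of 12 h with 3 h was added after the members' values were seen. In it 3 of 9 probe sets were called lower and 0 higher, against 10.2% and 7.29% of all: Fos fell by 0.96 ± 0.12 (adjusted p = 0.000296), and the Jun probe sets by 0.43 ± 0.13 (1417409_at, 0.0364) and 0.77 ± 0.14 (1448694_at, 0.00369). The call of the brighter Jun probe set did not hold with equal medians on all arrays (adjusted p = 0.114), with no filter (0.0551) or with the intensity trend left off (0.122). Leaving out any 1 of 5 arrays ended it too: replicate 1 at 3 h (0.206), replicate 2 at 3 h (0.0858), replicate 1 at 12 h (0.251), replicate 1 at 0 h (0.0531) or replicate 2 at 0 h (0.0528). Scaling to the same median moved the median change of all probe sets by -0.13 at 3 h, -0.11 at 6 h, -0.01 at 12 h, 0.10 for 12 h against 6 h and 0.12 for 12 h against 3 h; the other called members kept their direction and their call under it. Called probe sets split 936 higher to 454 lower at 3 h (67.3% higher), and 39% were higher after that scaling; for 6 h these shares were 59.5% and 42%, for 12 h against 6 h 19.1% and 44.8%, and for 12 h against 3 h 41.6% and 62.6%.

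**Figure D4:**
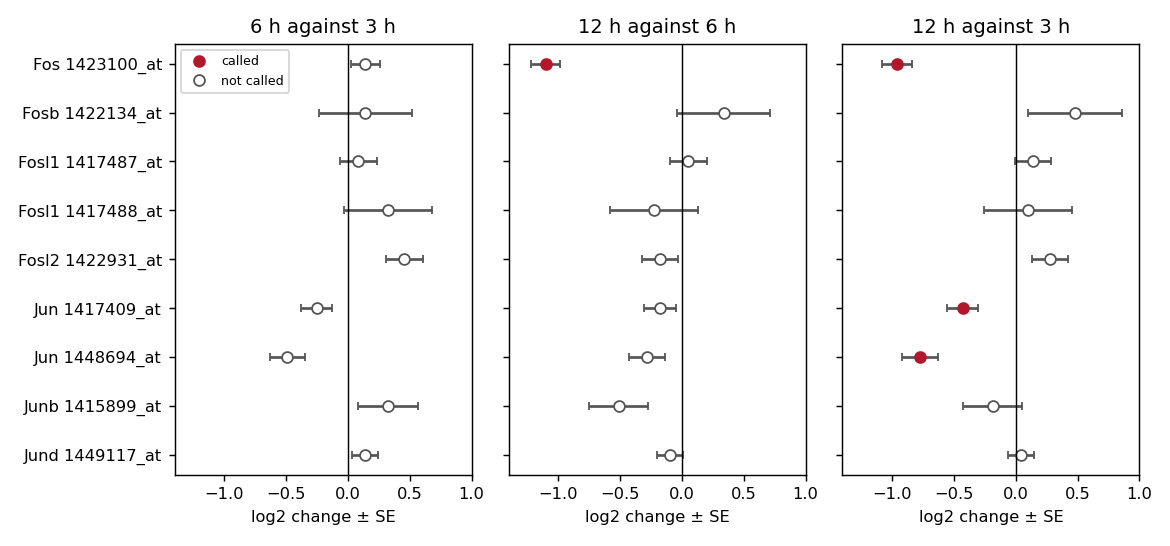
Change on the log2 scale (horizontal axes) with its SE as bars, for each probe set from 3 to 6 h, from 6 to 12 h and from 3 to 12 h; red points were called. Fos at -1.10 and -0.96 and the Jun probe sets at -0.43 and -0.77 are the called values.

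The genes whose log2 signals followed each member most closely over the 8 arrays were taken from 1491 genes whose time means spanned at least 1 log2 unit. For Fos they were Klf10 (Pearson r = 0.995), Egr1 (0.987) and Osgin1 (0.984), and for Jun Egr1 (0.989), Zfp93 (0.985) and Myc (0.984). For Junb they were Baiap2l1 (0.992), Zfp82 (0.989) and Irf1 (0.986). Fosl1 was closest to Atf3 and Atf4 (0.995 each) and Gadd45g (0.994), and Fosl2 to Foxj3 (0.993), Tiparp (0.992) and Noct (0.991). Fosb was closest to Clasrp (0.984), Tmem120b (0.982) and Stag3 (0.982), and the time means of Jund spanned only 0.18. These are descriptions over 8 points that share arrays and fall into 4 times, and a gene is the nearest of many candidates by choice.

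Other leucine zipper genes were read from a list of 38, of which 30 were tested. It holds partners and competitors of FOS and JUN, and also wider relatives such as Nfil3, Dbp, Tef and Xbp1. At 3 h 12 rose and 0 fell, at 6 h 15 rose and 3 fell, and at 12 h 15 rose and 5 fell. Their median changes were 0.38, 0.55 and 0.50. Equal medians on all arrays gave 10 higher and 1 lower at 3 h, and 13 and 3 at 6 h. Over the 8985 genes read by 1 probe set each, 7.15% rose and 2.76% fell at 3 h, 15.1% and 8.56% at 6 h, and 19.1% and 16.2% at 12 h, with medians of 0.06, 0.07 and 0.06. This list and those below were chosen with earlier results of these data known, so their counts do not test an excess over these shares. Atf3, a stress-induced partner of JUN, rose from 408.6 ± 11.2 to 5054 ± 632 at 3 h and 6671 ± 274 at 12 h, a change of 4.003 ± 0.11 at 12 h (limma adjusted p = 3.53e-09). Ddit3, which encodes CHOP, rose by 3.47 ± 0.12 at 12 h and Maff, a small MAF protein without an activation domain, by 2.72 ± 0.14. Jdp2, a repressive partner of JUN, rose by 1.005 ± 0.11, 1.24 ± 0.11 and 1.12 ± 0.11 at the 3 times (adjusted p = 0.000192, 1.82e-05 and 2.1e-05). Bach2, a repressor of the same site class, fell by 2.57 ± 0.40 at 12 h (limma adjusted p = 0.000444). Its signal was 166.1 ± 26.9 at 0 h and 23.65 ± 17.5 at 12 h. The 12 h level lay under the filter's signal of 40.7, so the size of the fall is uncertain. The probe set of Batf was under the filter and was not tested.

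Kinases and factors that act on the FOS and JUN promoters or proteins were read from a second list. Of all 8985 genes 7.15% rose and 2.76% fell at 3 h, and 15.1% and 8.56% at 6 h. At 12 h 19.1% rose and 16.2% fell. Of 37 tested in the list 4 rose and 1 fell at 3 h, and 7 rose and 3 fell at 6 h. At 12 h 7 rose and 10 fell, with the rises near the share of all genes. With all arrays brought to equal medians 1 rose and 2 fell at 3 h, and 5 rose and 5 fell at 6 h, so the split of these calls depends on the scaling. The 3 h calls numbered 3 with quantile normalization or with no filter and 0 with no intensity trend. The list's medians were 0.02, -0.08 and -0.06, and the 3 h calls numbered 0 without either 3 h array and 1 without either 0 h array. At 6 h 5 were called when replicate 2 of 0 h was left out and 6 when replicate 1 of 6 h was. At 12 h they were 9 to 11 without replicate 1 or 2 at 0 h or at 12 h. Srf, the serum response factor that acts at Fos, had changes of 0.21 ± 0.15, 0.16 ± 0.15 and 0.03 ± 0.15 (limma adjusted p = 0.447, 0.497 and 0.897). Mef2d, a MADS-box activator of Jun, fell by 1.28 ± 0.16 at 12 h and Crebbp, the coactivator CBP, by 1.01 ± 0.18 (adjusted p = 9.83e-05 and 0.0012). Crtc2, a coactivator of CREB, and the kinase gene Braf rose by 1.06 ± 0.31 and 0.86 ± 0.22 at 12 h (0.0195 and 0.00936). The call of Crtc2 did not hold once replicate 2 of 0 h or of 12 h was left out (0.185 and 0.139), and that of Braf once replicate 1 of either time was (0.0692 and 0.065).

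The lists below are set beside all 8985 genes, of which 7.15% rose and 2.76% fell at 3 h. At 6 h these shares were 15.1% and 8.56%, and at 12 h 19.1% and 16.2%. Of 28 genes for cofactors and protein turnover of AP-1, 1 rose and 1 fell at 3 h, and 7 rose and 2 fell at 6 h. At 12 h 6 rose and 4 fell, which was near the shares of all genes. The medians were 0.07, 0.05 and 0.25. Equal medians on all arrays gave 0 higher and 2 lower at 3 h, and 3 and 3 at 6 h, and with no intensity trend 0 were called at 3 h and 5 at 6 h. Called members numbered 0 or 1 at 3 h without any 1 of the 0 or 3 h arrays, 2 and 5 at 6 h when replicate 1 or 2 of 0 h was left out, 5 there when replicate 1 of 6 h was, and 6 at 12 h when replicate 1 of 0 h was. At 12 h Men1, whose product menin binds JUND, fell by 1.17 ± 0.16, and Ets2, a factor that works beside AP-1, rose by 1.09 ± 0.13 (limma adjusted p = 0.000179 and 6.31e-05). Gsk3b, a kinase that marks c-JUN for degradation, rose by 0.98 ± 0.18 (0.00116), and Tob2 fell by 1.14 ± 0.28 (0.00728), a call that ended once replicate 2 of 0 h (0.0858) or replicate 1 of 12 h (0.0694) was left out. Of 23 genes for decay of AU-rich messenger RNAs, the class that holds Fos and its relatives, 6 rose and 1 fell at 3 h, 7 rose and 1 fell at 6 h, and 8 rose and 4 fell at 12 h. Their medians were 0.19, 0.18 and -0.08. Equal medians on all arrays gave 4 higher and 1 lower at both 3 and 6 h, and with no intensity trend 4 were called at 3 h and 5 at 6 h. Called members numbered 4 at 3 h when replicate 1 of 0 h or any 3 h array was left out, 4 and 5 at 6 h without replicate 1 or 2 at 0 h, and 7, 5 and 6 at 12 h without replicate 1 or 2 at 0 h or replicate 2 at 12 h. Zfp36, which encodes the decay factor tristetraprolin, was 215.8 ± 47.6 at 0 h and 1835 ± 105 at 3 h, and it rose by 3.06 ± 0.19, 2.38 ± 0.19 and 1.92 ± 0.19 at 3, 6 and 12 h (adjusted p = 1.3e-06, 5.14e-06 and 1.64e-05). Cnot4, a ubiquitin ligase of the deadenylase complex, rose by 1.36 ± 0.15 at 12 h, and Cnot6, a deadenylase subunit, fell by 0.93 ± 0.10 (3.52e-05 and 4.05e-05). Syncrip, an RNA-binding protein gene, fell by 0.87 ± 0.15 (0.00112).

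Genes reported elsewhere as AP-1 targets moved in both directions. Among all 8985 genes 7.15% rose and 2.76% fell at 3 h, and 15.1% and 8.56% at 6 h. At 12 h 19.1% rose and 16.2% fell. Of 46 targets tested, 12 rose and 4 fell at 3 h, 14 rose and 8 fell at 6 h, and 12 rose and 16 fell at 12 h. Their medians were 0.15, -0.04 and -0.16. Equal medians on all arrays gave 11 higher and 8 lower at 3 h, and 12 and 13 at 6 h. Among the rises at 12 h were Vegfa, a vascular growth factor gene (3.26 ± 0.17), Ptgs2, which encodes cyclooxygenase 2 (2.82 ± 0.18), and Hmox1, which encodes heme oxygenase 1 (2.53 ± 0.18), with limma adjusted p of 1.12e-07, 6.28e-07 and 1.72e-06. S100a4, a calcium-binding protein gene tied to motility, fell by 2.83 ± 0.14, from 1528 ± 157 to 208 ± 11.6 (1.12e-07). Mmp3, the stromelysin gene and a textbook AP-1 target, changed by 0.13 ± 0.62 at 3 h and -0.10 ± 0.62 at 6 h and was called lower at 12 h (-2.14 ± 0.62, adjusted p = 0.0183), on a signal of 82.5 ± 15.4 at 0 h. That call was lost without either 0 h array (0.113 and 0.063), without replicate 1 at 12 h (0.128; change -1.10) and without the intensity trend (0.0504). Genes chosen after their values were seen are the collagenase gene Mmp13, which rose by 2.30 ± 0.26 at 12 h (4.1e-05), its inhibitor gene Timp1, which fell by 0.80 ± 0.13 (0.000487), and the cyclin gene Ccnd1, which fell by 1.04 ± 0.14 (0.000199). Whether FOS or JUN proteins acted on any of these genes was not measured. The plot of the genes around AP-1 shows the 5 lists.

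**Figure D5:**
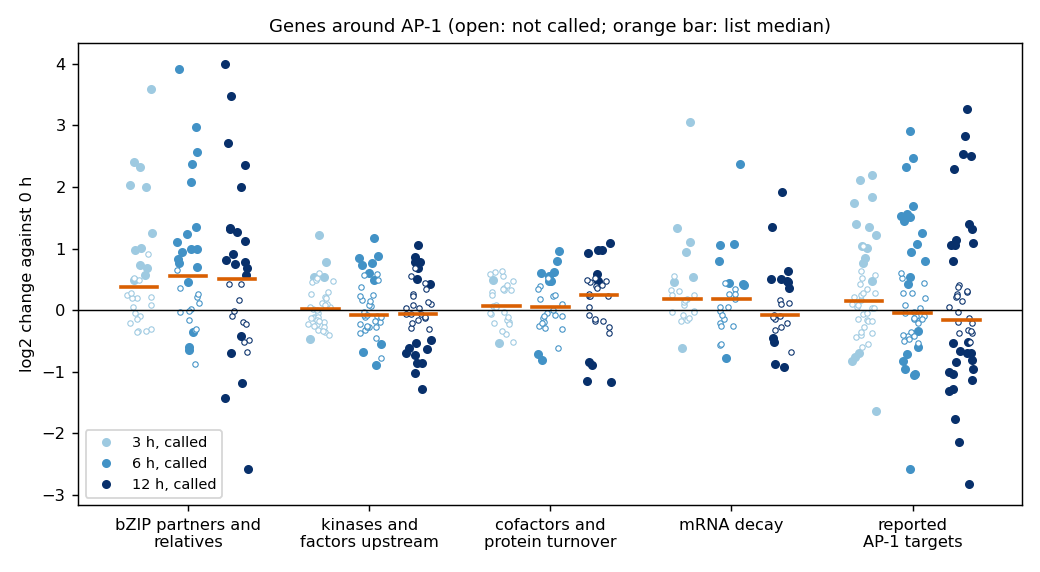
Change against 0 h on the log2(signal + 7.9) scale (vertical axis) of each tested gene in 5 lists at 3, 6 and 12 h; filled points were called, open points were not, and orange bars are list medians. The leucine zipper list has its medians between 0.38 and 0.55 and Atf3 at its top, and the target list spreads from -2.83 to 3.26 at 12 h.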

How the data were processed

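RNA of 8 TTE3 samples was hybridised to one-colour arrays. The authors deposited 1 linear intensity for every probe set on every array, each above 0. The software that made them is not given in the sources used here. The values show that the authors had scaled each array to the same mean (499.96 on every array without the top and bottom 2% of probe sets), so a general shift of RNA would not be seen. No further scaling was applied, and log2(signal + 7.9) was taken, with the 10th percentile of all signals as offset. Of 22690 probe sets 64 controls were left out, and a probe set was kept if its mean on the log2 scale passed the 30th percentile (a signal of about 40.7): 15838 probe sets, among them the family's 9, Fosb through its treated arrays. Symbols come from the platform annotation, matched to RefSeq GRCm38.p6 through Entrez identifiers. For 20351 probe sets the RefSeq symbol was used, whether or not it differed, and for 29 the annotated one was kept. List genes were read by their brightest probe set. limma 3.58.1 in R 4.3.3 fitted 1 mean per time over all 8 arrays (lmFit, eBayes with an intensity trend; 4 residual and 7.82 prior degrees of freedom), with two-sided tests adjusted by Benjamini-Hochberg over all probe sets; the script was tested on simulated data. Named genes were the 7 members, up to 4 per list (the largest called changes at the time with most calls, both arrays beyond both 0 h arrays), the 3 genes most like each member, and Atf3, Jdp2, Batf, Maff, Srf, Zfp36 and Mmp3. The members and lists were chosen with earlier results of these data known. Creb1, Atf1 and Trp53 are each in 2 lists. Crtc2 and Srf were read by _s_at and Tob2 by _x_at probe sets, which can bind several transcripts.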

Additional observations from a re-analysis of the deposited data

Results flagged for a closer look

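The members' changes at 12 h were compared directly with those at the earlier times, and 4 values differed by that test in limma. Fos changed by -1.10 from 6 to 12 h and by -0.96 from 3 to 12 h. The Jun probe sets changed by -0.43 (1417409_at) and -0.77 (1448694_at) from 3 to 12 h. Both replicates at 12 h lay below both replicates of the earlier time in each of these. The comparison with 3 h was added after the values were seen, and the smaller of the Jun values lost its call under 8 of 18 alternatives.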

How the results depend on the processing

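Alternatives were run on the members and the lists: other scalings, offsets, filters, no intensity trend, only the groups compared, 1 probe set per gene, a replicate block, and each array left out in turn. The stricter filter dropped Fosb and the dimmer Fosl1 probe set, and 1 probe set per gene dropped the dimmer ones of Fosl1 and Jun. Of 948 member values 925 stayed on the same side of the threshold, 22 lost and 1 gained the call. Of 1233 values of the named list genes 1175 stayed on it, 50 lost and 8 gained the call. Among values called in the main fit or the alternative 0 reversed, and uncalled values were not checked for direction. Some of the uncalled values changed sign, as that of Jund at 3 h, which ranged from -0.09 to 0.11. The family's counts of calls at 3, 6 and 12 h were 6 to 7, 7 and 6 to 8 with 1 array left out, and between later times 0 from 3 to 6 h, 1 from 6 to 12 h and 2 to 3 from 3 to 12 h. Counts over all probe sets moved more. At 3 h the 1390 calls became 670 without the intensity trend and 508 to 1738 with 1 array left out. At 6 h the 3457 became 2291 with 1 row per gene and 1816 to 3483 with 1 array left out, and at 12 h the 5293 became 3323 and 3468 to 5725. From 3 to 6 h the 154 became 0 without the trend, 90 with only the 2 groups compared, 97 with 1 row per gene and 24 to 194 with 1 array left out. From 6 to 12 h the 471 became 62 without the trend, 127 with only the 2 groups, and 174 to 464 with 1 array left out. For 12 h against 3 h the 2773 became 1679 without the trend and 1364 to 3221 with 1 array left out. With the replicate number as a block 772 were called from 6 to 12 h, and the family's counts were 7, 7 and 8 at 3, 6 and 12 h, and 0, 1 and 3 between later times. Same-numbered arrays of different times correlated at 0.007 to 0.119 in their deviations from the group means, so the numbers were not taken as pairs. The cause of these moves was not tested. Signals near the filter, as those of Fosb, Mmp3 and Bach2, limit what can be called.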

Other observations

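Over the 8 arrays the log2 signals of Fos and the brighter Jun probe set had a Pearson r of 0.974, those of Fos and Junb 0.964, and those of Fosl1 (1417487_at) and Fosl2 0.974. The dimmer Jun probe set had 0.886 with the brighter one and 0.485 with Fosb, and Jund had between 0.269 (the dimmer Jun probe set) and 0.726 (the dimmer Fosl1 probe set) with the other members. These values describe 8 arrays that share 4 times and carry no test.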
